A study of Homo sapiens with 18 samples.

Results

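The block described here lies near the end of the short arm of human chromosome 19, in band 19p13.3, at chr19:281040-1863569, and spans 1.58 Mb. Its members are the protein-coding genes of the authors' count table that start in that interval, without those whose symbols begin with RPS, NDUF, UQCR, ATP5 or ABC. The rule found 56 genes of the 25296 in the table, and 50 of them had enough counts to be tested. The other 6, ODF3L2, PRSS57, PLPPR3, PRTN3, PLK5 and AC005943.1, had between 0 and 10 counts in every library. The block was chosen by the measured difference between untreated cells of a mutant line and of a vector control, in which its genes were shifted together. Values that involve those libraries are therefore given as a description, and tests are given for libraries that the choice did not use.

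The end of the short arm of chromosome 19 is crowded with short, GC-rich genes, many with CpG islands at their starts. Neighbours in it have unrelated tasks, among them STK11, the LKB1 kinase that activates AMPK and is a tumour suppressor, GPX4, which reduces lipid hydroperoxides and protects cells from ferroptosis, and MBD3, a subunit of the NuRD chromatin remodelling and deacetylase complex. DNMT3A, the gene introduced into these cells, lies on another chromosome and encodes a methyltransferase that adds methyl groups to cytosines of unmethylated CpG sites.

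The series profiled total RNA of U2OS, an established human osteosarcoma line, in 18 libraries. According to the labels, 3 derived lines were compared, with the empty vector MigR1 (EV), with wild-type DNMT3A (WT) or with mutant DNMT3A (MUT), which the series title calls R882C and the sample labels R882H. RNA came from untreated cultures of each line and from cultures exposed for 24 h to 10 µM cytarabine (an analogue of cytidine that stops DNA replication), with 3 biological replicates per group. All lines share the U2OS background and its own DNMT3A gene, and the labels name 1 line per construct, so that an effect of the construct and a difference between lines cannot be told apart.

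Library totals ran from 15.4 to 21.9 M estimated counts. Values below are counts per M scaled library counts (CPM), or log2 differences between group means from a single fit. DNMT3A gave 26.9 ± 0.662 CPM (SD, n = 3) in untreated EV, 133 ± 5.17 in untreated WT and 456 ± 185 in untreated MUT, and 47.4 ± 2.08, 176 ± 8.68 and 524 ± 8.71 CPM in the treated groups in the same order. The untreated MUT libraries stood apart from each other, with DNMT3A at 253.6 CPM in replicate 3 against 499.7 and 615 CPM in the others and a within-group biological coefficient of variation of 0.19 over all genes, against 0.0391 in untreated EV. Of 9 osteoblast lineage markers, 7 were in the table, with SPARC at 804.6 CPM or more in every library and BGLAP at 0.437 CPM or less, while SP7 and TWIST1 were not analysed here. Their summed level was 1351 to 1527 CPM in treated MUT, above the 1104 to 1307 CPM of treated EV and the 1136 to 1235 CPM of treated WT. Most of that sum was SPARC, with COL1A1 at 60.8 to 294 CPM, COL1A2 at no more than 8.11 CPM and ALPL at no more than 15.0 CPM. The part of the summed level in the results below was not tested. The 4 epithelial markers summed to 361 to 373 CPM in treated MUT, 364 to 393 CPM in treated WT and 309 to 381 CPM in treated EV, most of it KRT18. The summed level of the leukocyte markers was at most 1.72 CPM. Such bulk libraries cannot tell fewer expressing cells from less RNA per cell.

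The stretches before the starts of 3 members are shown because these members bracket the responses described below. MBD3 was higher in both DNMT3A lines, MISP differed from EV in opposite directions in them, and GRIN3B was nearly absent from both. They were chosen after their values had been seen. Each is the 250 bases before the RefSeq start in GRCh38.p14, written 5′ to 3′ on the gene's own strand, with GC boxes (GGGCGG or its reverse complement CCGCCC, the core of Sp1 and KLF family sites) in capitals. MBD3 is at chr19:1592866-1593115 (minus strand), MISP at chr19:750862-751111 (plus strand) and GRIN3B at chr19:1000169-1000418 (plus strand).
MBD3: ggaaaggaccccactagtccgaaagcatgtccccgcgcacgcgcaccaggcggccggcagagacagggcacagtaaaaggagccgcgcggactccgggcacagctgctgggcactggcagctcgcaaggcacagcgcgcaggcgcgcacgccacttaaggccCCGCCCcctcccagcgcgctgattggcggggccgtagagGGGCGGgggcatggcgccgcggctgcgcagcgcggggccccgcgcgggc
MISP: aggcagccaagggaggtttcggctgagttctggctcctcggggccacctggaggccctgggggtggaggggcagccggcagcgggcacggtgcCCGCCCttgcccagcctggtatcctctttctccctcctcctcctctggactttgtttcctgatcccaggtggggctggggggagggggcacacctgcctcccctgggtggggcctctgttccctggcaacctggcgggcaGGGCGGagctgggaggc
GRIN3B: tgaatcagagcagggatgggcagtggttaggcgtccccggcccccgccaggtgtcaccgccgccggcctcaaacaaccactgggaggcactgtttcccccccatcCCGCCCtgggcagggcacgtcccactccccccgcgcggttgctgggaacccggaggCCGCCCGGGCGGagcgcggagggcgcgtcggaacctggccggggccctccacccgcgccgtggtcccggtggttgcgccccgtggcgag

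The MBD3 stretch held 32 CpG dinucleotides and 2 GC boxes, the GRIN3B stretch 28 CpG dinucleotides and 3 GC boxes, and the MISP stretch 8 CpG dinucleotides and 2 GC boxes. RefSeq starts were matched for 49 members, 45 of them tested. Over the tested members the median GC content of these 250 bases was 75.2% and the median number of CpG dinucleotides 29, against 62.4% and 17 over 15843 protein-coding genes of the table. A GC box on either strand was present in 41 of the 45 (91.1%), in 56.0% of all protein-coding genes and in 63.9% of those on chromosome 19. The GC box and the GC content overlap as measures. The letters TATAAA, searched on both strands, were in none of the 45 windows and in 6.66% of all. These counts describe letters in a window and not bound sites.

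The block as a whole was highest in the MUT line and lowest in the EV line, with and without cytarabine. Taking each tested member's log2 CPM minus its mean in untreated EV, the median over members was 0.28, 0.41 and 0.47 in untreated MUT replicates 1, 2 and 3 and 0.15, 0.18 and 0.15 in untreated WT. After cytarabine it was 0.21, 0.15 and 0.23 in MUT, -0.02, 0.00 and 0.03 in WT and -0.08, -0.13 and -0.10 in EV. The treated libraries of the 3 lines did not overlap in this value, whereas the median over all tested genes ran from -0.02 to 0.05 over the 18 libraries. The summed level of the members was 4628, 4354 and 4632 CPM in treated MUT, 4024, 4095 and 4223 CPM in treated WT and 3846, 3700 and 3791 CPM in treated EV.

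**Figure D1:**
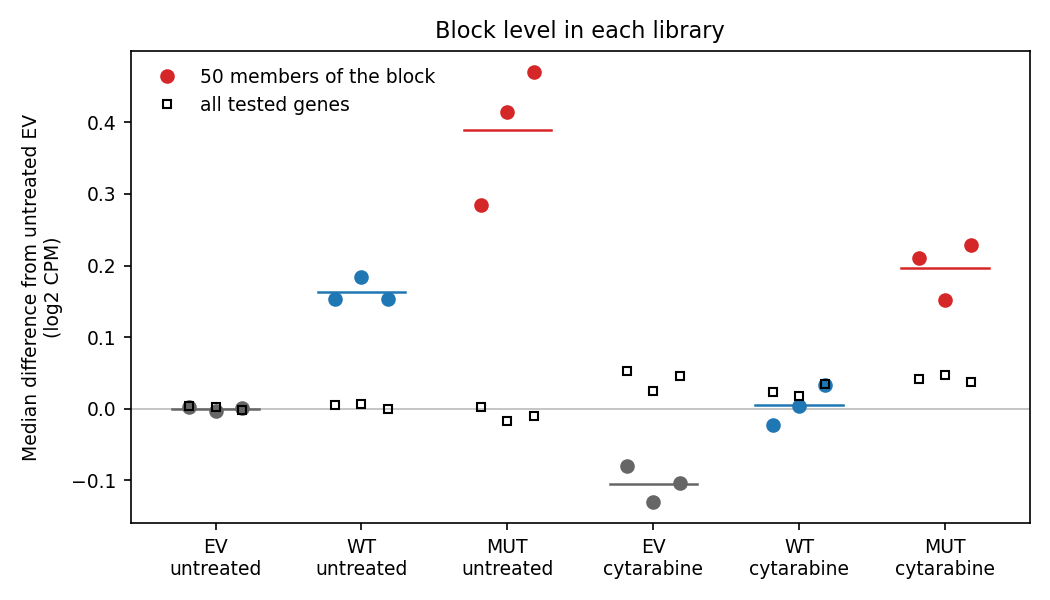
Median over the 50 tested members (filled circles) and over all tested genes (open squares) of log2 CPM minus the mean of untreated EV, for each of the 18 libraries in their 6 groups; horizontal lines are group means of the filled circles. The MUT libraries lie highest in each treatment, from 0.28 to 0.47 untreated and from 0.15 to 0.23 after cytarabine, while the squares stay near 0.

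Between untreated MUT and untreated EV, the comparison that chose the block, the median log2 difference over the tested members was 0.415, a fold of 1.33. Of the 50 members 46 were above 0, against 49.6% of all tested genes. All 3 MUT libraries exceeded all 3 EV libraries for 32 members, a state found in 14.3% of all tested genes. No test is attached to these values. MADCAM1 and GRIN3B had all 3 MUT libraries below all 3 EV libraries, against 16.0% of all tested genes. MADCAM1, an adhesion molecule of mucosal vessels, was at no more than 0.409 CPM in any untreated library.

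The treated cultures were separate libraries of the same lines, and in them the same direction was found. A lasting difference between the lines that chose the block would be found again here. The calls below therefore show that the shift recurred in these lines and are not separate evidence of an effect of the construct. After cytarabine 26 of the 50 tested members rose in MUT against EV, between 1.14-fold and 1.82-fold. The 1 call in the other direction was GRIN3B, which passed the low-count filter only through the EV libraries, where it is high, so that its call carries no weight and it is described by its counts. The test was edgeR's quasi-likelihood F test with Benjamini-Hochberg adjustment over 18226 genes, at an adjusted p under 0.05, and called 6.85% of all genes higher and 7.13% lower. The median over the tested members was 0.32 on the log2 scale, a fold of 1.24, with an interquartile range of 0.21 to 0.43, and 48 members were above 0. Over all genes the median was -0.01, the interquartile range -0.20 to 0.17, and 48.7% were above 0. All 3 MUT libraries exceeded all 3 EV libraries for 39 members, against 17.1% of all genes, and lay below them for GRIN3B and REEP6, against 16.5%. In all, 45 members were above 0 in both the untreated and the treated comparison, and 1, GRIN3B, was below 0 in both. The share of all genes above 0 in both was not computed.

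Of the 26 members that rose, 14 were past the threshold in each of the 6 fits that left out 1 library: PLPP2, POLRMT, PALM, MISP, ARID3A, POLR2E, SBNO2, STK11, MUM1, C19orf25, MEX3D, MBD3, TCF3 and KLF16. The number that rose was 17 without treated MUT replicate 1 and 16 without treated MUT replicate 3. On simulated data for this comparison, 20.9% of 67 genes changed 1.25-fold and 86.6% of 67 genes changed 1.5-fold were recovered. Far fewer genes were changed there than the 2548 past the threshold in the real comparison. The simulated shares therefore do not give the share of members that could be detected.

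**Figure D2:**
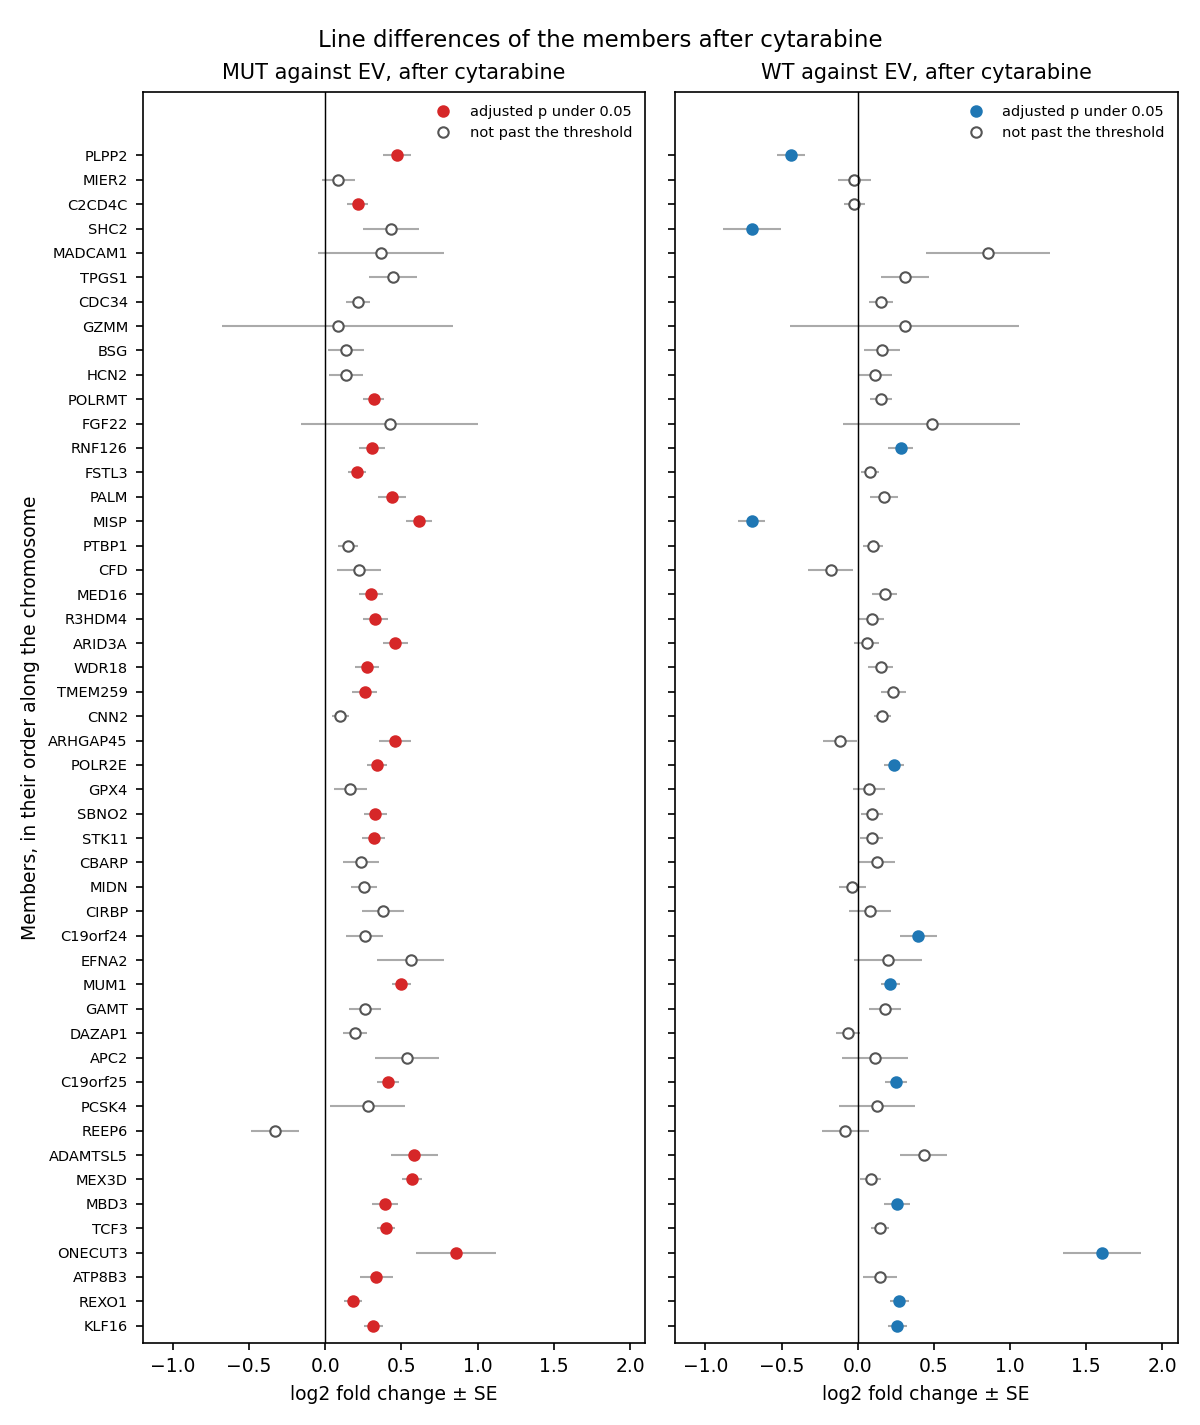
Log2 fold changes with standard errors of 49 tested members after cytarabine, in their order along the chromosome, for MUT against EV (left) and WT against EV (right); filled points passed an adjusted p under 0.05 in edgeR and GRIN3B, with too few counts in MUT and WT for a fold, is left out. On the left all points but REEP6 lie above 0, and on the right PLPP2, SHC2 and MISP are the filled points below 0.

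In the list of regulators of transcription and chromatin 9 of 10 members rose in treated MUT against EV, with a median of 0.37. These were MBD3, TCF3, ARID3A, KLF16, ONECUT3, MED16, POLR2E, SBNO2 and MUM1. Over the whole block 52% rose, and over all genes 6.85%. The lists were drawn up with earlier results of these data known. Whether the calls gather in this list was not tested. MIER2, an ELM-SANT protein of deacetylase complexes, was at 0.09 and did not pass. MBD3 gave 169, 171 and 177 CPM in treated MUT, 150, 165 and 157 CPM in treated WT and 124, 140 and 130 CPM in treated EV. Each MUT library was above each WT library, and each WT library above each EV library. The MUT to EV difference was 0.39 (SE 0.0865, adjusted p 0.00498, edgeR with Benjamini-Hochberg adjustment). In the same test MUT to WT, at 0.13, did not pass (adjusted p 0.302), and WT to EV, at 0.26, passed narrowly (adjusted p 0.0475). That WT to EV call was not kept in every fit that left out 1 library. In untreated cells MBD3 stood at 249, 336 and 329 CPM in MUT, at 250, 257 and 260 CPM in WT and at 219, 213 and 210 CPM in EV, so that MUT replicate 1 lay below all WT libraries.

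TCF3, which encodes the E proteins E12 and E47, gave 212, 194 and 210 CPM in treated MUT and 159, 152 and 156 CPM in treated EV. Its difference of 0.40 had an SE of 0.0608 and an adjusted p of 2.3e-04 in the same edgeR test with Benjamini-Hochberg adjustment. POLR2E, a subunit shared by the nuclear RNA polymerases, gave 185, 175 and 188 CPM in treated MUT and 147, 149 and 137 CPM in treated EV. For both genes the 2 groups were clear of each other by more than their own ranges. POLR2E overlaps its neighbour ARHGAP45, which runs the other way, and the use of strand in counting is not given in the sources used here. Of the 50 tested members 17 overlap a gene on the opposite strand, so that reads of such pairs may not be separated.

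MUM1, a PWWP-domain protein with a part in the DNA damage response, gave 105, 107 and 115 CPM in treated MUT, 90.0, 88.4 and 90.3 CPM in treated WT and 75.9, 76.7 and 79.0 CPM in treated EV. The 3 lines formed 3 separate groups, and the MUT to EV difference was 0.50 (SE 0.0628, adjusted p 3.3e-05, edgeR with Benjamini-Hochberg adjustment). ONECUT3, a homeobox transcription factor, had the largest fitted rise among the named members, 0.86, at low level, with 2.86, 1.48 and 2.75 CPM in treated MUT and 1.22, 1.31 and 1.37 CPM in treated EV. Treated MUT replicate 2 was close to the EV libraries. The adjusted p of ONECUT3 was 0.0346 in edgeR with Benjamini-Hochberg adjustment. It lay between 0.0745 and 0.144 without any of the EV replicates or without MUT replicate 1 or 3, and over all alternatives it ranged from 0.00885 to 0.144.

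All 6 RNA-binding and RNA-processing members were above 0 in treated MUT against EV, with a median of 0.23, and 3 rose, MEX3D, WDR18 and REXO1. MEX3D, a KH-domain RNA-binding protein, gave 166, 147 and 159 CPM in treated MUT, 108, 114 and 116 CPM in treated WT and 101, 114 and 103 CPM in treated EV. MUT lay above both other lines, which overlapped. The MUT to EV difference was 0.57 (SE 0.0684, adjusted p 1.9e-05, edgeR with Benjamini-Hochberg adjustment). The splicing regulators PTBP1 and DAZAP1 were at 0.15 and 0.19 and did not pass. REXO1, an RNA exonuclease homologue, passed narrowly at 0.18 (adjusted p 0.0496, edgeR with Benjamini-Hochberg adjustment) and was past the threshold in 5 of 17 alternatives, with adjusted p from 0.0291 to 0.197.

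Of the 5 tested signalling members, STK11 and FSTL3 rose. STK11 gave 120, 116 and 114 CPM in treated MUT, 97.0, 95.7 and 107 CPM in treated WT and 90.5, 97.3 and 92.9 CPM in treated EV, a MUT to EV difference of 0.32 (SE 0.0762, adjusted p 0.00856, edgeR with Benjamini-Hochberg adjustment). MUT exceeded both other lines in every library, and WT overlapped EV. FSTL3, which binds activin and other TGF-β family ligands, rose by 0.21, and its call was lost in 5 of the 6 fits without 1 library. SHC2, an adaptor of receptor tyrosine kinases, was at 0.43 and EFNA2, an ephrin ligand, at 0.56 with SE of 0.183 and 0.220, and neither passed. FGF22, a fibroblast growth factor, was at 0.42 with an SE of 0.58.

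Among the protein turnover members TMEM259 and RNF126 rose, with a list median of 0.26, while CDC34, a ubiquitin-conjugating enzyme of the SCF pathway, was at 0.22 and did not pass (adjusted p 0.0783, edgeR with Benjamini-Hochberg adjustment). TMEM259, a membrane protein of the endoplasmic reticulum, was at 0.26 and lost its call without any of the EV replicates or without MUT replicate 1 or 3. In the metabolic list POLRMT and PLPP2 rose and GPX4 and GAMT did not pass. POLRMT, the mitochondrial RNA polymerase, gave 89.6, 82.2 and 90.9 CPM in treated MUT and 65.1, 76.2 and 69.7 CPM in treated EV, a difference of 0.32 (SE 0.0702). GPX4 gave 189, 153 and 180 CPM in treated MUT and 173, 145 and 149 CPM in treated EV. Its groups overlapped, with a difference of 0.16 (SE 0.107, adjusted p 0.355, edgeR with Benjamini-Hochberg adjustment).

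The list of membrane, adhesion and cytoskeletal genes had 10 tested members, of which 5 rose, with a median of 0.35. MISP, an actin-bundling protein of the mitotic spindle and cell cortex, gave 80.4, 73.4 and 80.3 CPM in treated MUT, 32.5, 31.3 and 30.5 CPM in treated WT and 47.4, 53.4 and 52.1 CPM in treated EV. PALM, a lipid-anchored protein of the plasma membrane, gave 105, 81.4 and 91.8 CPM in treated MUT and 67.4, 71.0 and 67.1 CPM in treated EV, a difference of 0.44 (SE 0.0905). ARHGAP45 rose by 0.46 and was at an adjusted p of 0.0556 in edgeR with Benjamini-Hochberg adjustment without MUT replicate 3. ATP8B3, a phospholipid flippase family member, was at 0.34 (adjusted p 0.048, edgeR with Benjamini-Hochberg adjustment), past the threshold in 10 of 17 alternatives, with adjusted p from 0.0251 to 0.187. BSG, or basigin, the partner of monocarboxylate transporters, was at 0.13 and CNN2, a calponin, at 0.10, and neither passed. REEP6, an endoplasmic reticulum shaping protein, was at -0.33 (SE 0.156) and did not pass.

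Members of the leukocyte, neuronal and germ-line lists did not pass, GRIN3B apart. Of the leukocyte granule and serine protease list, CFD (complement factor D) was at 0.22 and GZMM (granzyme M) at 0.08 with an SE of 0.757, and the sign of GZMM turned with the replicate left out. Of the neuronal list, the channel subunit HCN2 was at 0.14 and the calcium channel regulator CBARP at 0.23. PCSK4, a proprotein convertase of the germ line, was at 0.28. The members in no list included ADAMTSL5, a secreted matrix protein, which gave 12.0, 10.8 and 11.2 CPM in treated MUT and 8.75, 6.31 and 7.57 CPM in treated EV, a difference of 0.58 (SE 0.153, adjusted p 0.0149, edgeR with Benjamini-Hochberg adjustment). Its adjusted p was 0.0667 without EV replicate 2 and 0.0569 without MUT replicate 1. C2CD4C was at 0.21 (adjusted p 0.0498, edgeR with Benjamini-Hochberg adjustment) and was past the threshold in 1 of 17 alternatives, with adjusted p from 0.047 to 0.247.

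GRIN3B, a subunit of NMDA-type glutamate receptors, went against the rest of the block. It had 26, 10 and 29 counts in treated EV, 0, 0 and 0 in treated WT and 0, 0 and 1 in treated MUT. Untreated EV had 16, 29 and 26 counts, untreated WT 0, 1 and 2, and untreated MUT 0, 2 and 1. Counts of this size were thus found in the EV libraries alone. No fold is given for it. GRIN3B overlaps TMEM259 on the opposite strand, and TMEM259 was above 0 in MUT and WT against EV. The summed level of the 3 listed neuronal markers RBFOX3, SNAP25 and SYT1 was also highest in EV, at 17.7 to 22.98 CPM in treated EV, 10.4 to 12.5 CPM in treated WT and 9.77 to 13.1 CPM in treated MUT, and none was at 0 in any library. Their part in the difference of GRIN3B was not tested. With GRIN3B placed at a floor of 3 counts over each of the MUT and WT groups, the medians of the block stayed at 0.32 for MUT and 0.15 for WT against treated EV.

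After cytarabine the group means were in the order EV, WT, MUT from low to high for 31 of the 50 tested members, against 15.1% of all tested genes. This is a description, and the 2 shares are not on equal terms. The block was chosen for MUT above EV, which held after cytarabine for 48 members and for 48.7% of all genes. The comparisons with WT share libraries with MUT against EV, so that their values are set side by side. After cytarabine the median over the tested members was 0.15 between WT and EV, where 39 of the 50 were above 0, and 0.14 between MUT and WT, where 41 were. Over all tested genes 49.5% and 50.6% were above 0 in these comparisons, with medians of -0.003 and 0.004. Between WT and EV 9 members (18%) rose and 4 (8%) were called lower, GRIN3B among them, against 7.41% and 9.12% of all genes. The share called lower in WT was thus near that over all genes. Between MUT and WT 15 rose (30%) and 1 fell (2%), against 10.4% and 9.48%, all in the edgeR test.

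The calls between WT and the other lines depended on single libraries. The 9 members higher in WT than in EV became 4 without treated EV replicate 3 or WT replicate 2 and 3 without WT replicate 3, and ONECUT3, REXO1 and KLF16 passed in every such fit. The 15 higher in MUT than in WT became 9 without treated MUT replicate 1 or 3 and 8 without treated WT replicate 1 or 2. PLPP2, SHC2, MISP, ARID3A, ARHGAP45, MUM1, MEX3D and TCF3 passed in each of these fits.

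Besides GRIN3B, PLPP2, SHC2 and MISP fell in WT against EV after cytarabine, while MISP and PLPP2 rose in MUT. For MISP the WT to EV difference was -0.70 (SE 0.088, adjusted p 2.0e-05) and the MUT to WT difference 1.31 (SE 0.0874, adjusted p 5.1e-09) in edgeR with Benjamini-Hochberg adjustment. The untreated cultures had MISP at 71.8, 94.3 and 93.8 CPM in MUT, 30.7, 31.5 and 30.0 CPM in WT and 47.2, 45.5 and 47.7 CPM in EV, so that the 3 lines were separate in both treatments. PLPP2, MISP and GRIN3B were the members with all 3 untreated WT libraries below all 3 untreated EV libraries, a state found in 21.5% of all tested genes.

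PLPP2, a phosphatase of phosphatidic acid and related lipids, gave 69.0, 64.0 and 68.6 CPM in treated MUT, 35.5, 33.7 and 38.3 CPM in treated WT and 53.5, 43.0 and 49.1 CPM in treated EV. No line overlapped another. The MUT to EV difference was 0.47, the WT to EV difference -0.44 and the MUT to WT difference 0.91, with adjusted p of 0.00218, 0.00333 and 1.6e-06 in edgeR with Benjamini-Hochberg adjustment. SHC2 gave 8.30, 7.37 and 8.28 CPM in treated MUT, 4.31, 2.54 and 4.06 CPM in treated WT and 6.50, 5.74 and 5.52 CPM in treated EV, again with no overlap. The summed level of the 3 listed endothelial markers had the same order, 8.04 to 10.6 CPM in treated MUT, 3.15 to 3.89 CPM in treated WT and 5.24 to 6.31 CPM in treated EV, with PECAM1 at no more than 0.418 CPM in any library, and its part in these differences was not tested. The WT to EV difference of SHC2, -0.70, had an adjusted p of 0.0172 in edgeR with Benjamini-Hochberg adjustment, and of 0.0618 without EV replicate 1 and 0.106 without WT replicate 2.

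ONECUT3 was highest in WT and lowest in EV. It gave 3.94, 4.05 and 3.92 CPM in treated WT, above all MUT and all EV libraries. CNN2 and ONECUT3 were the members with all 3 treated MUT libraries below all 3 treated WT libraries, against 22.8% of all tested genes. WT exceeded EV by 1.60 (SE 0.258, adjusted p 2.6e-04, edgeR with Benjamini-Hochberg adjustment), and MUT was lower than WT at -0.74 (SE 0.242, adjusted p 0.0361, edgeR with Benjamini-Hochberg adjustment). That last call was lost without MUT replicate 2 or any of the WT replicates, at adjusted p of 0.0804 to 0.166. C19orf24 was higher in WT than in EV by 0.40 (adjusted p 0.0315, edgeR with Benjamini-Hochberg adjustment), and leaving out any 1 of the 6 libraries ended the call, at adjusted p of 0.0546 to 0.102.

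**Figure D3:**
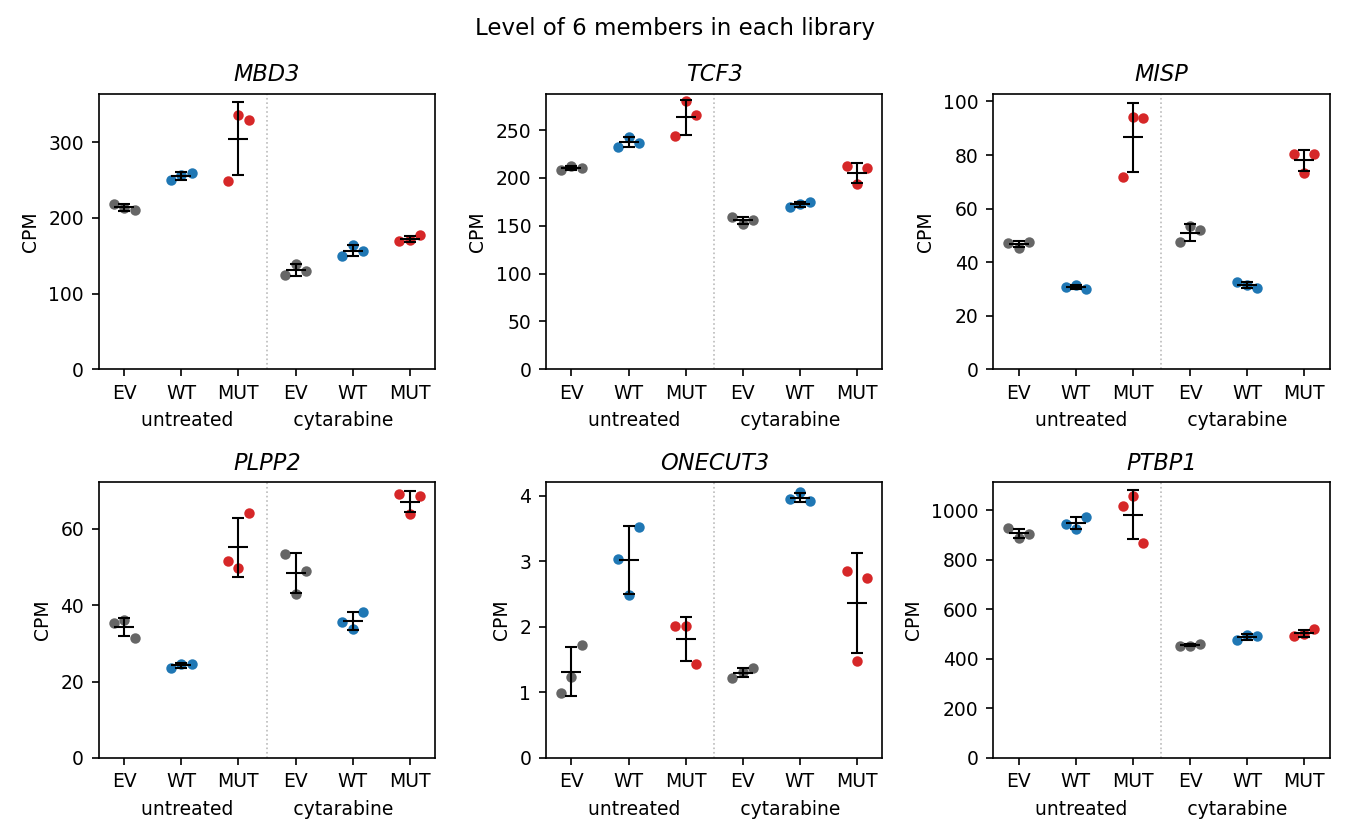
CPM of 6 members in each of the 18 libraries (points), with the mean and SD of each group (black), on axes that start at 0. MBD3 and TCF3 are ordered EV, WT, MUT after cytarabine, MISP and PLPP2 are lowest in WT, ONECUT3 is highest in WT, and PTBP1 differs mainly between untreated and treated cells.

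Cytarabine itself moved the members in both directions. In the WT line, whose libraries the choice of the block did not use, 15 of the 50 tested members (30%) rose between untreated and treated cells. Another 20 (40%) fell, against 26.3% higher and 22.7% lower over all genes in the edgeR test. The share that rose was thus near that over all genes, and the share that fell was above it. The median was -0.14 over the members and 0.03 over all genes. In EV and MUT, described without a test because their untreated libraries chose the block, the medians were -0.12 and -0.19. The members differed from each other more under cytarabine than between lines, with an interquartile range in WT of -0.53 to 0.43, and so did all tested genes, whose range was -0.33 to 0.50 under cytarabine in WT and -0.20 to 0.17 for MUT against treated EV.

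All 6 RNA-binding and RNA-processing members fell with cytarabine in WT, with a median of -0.75. PTBP1, which represses exon inclusion, fell from 946, 924 and 972 CPM to 474, 498 and 490 CPM, a log2 change of -0.96 (SE 0.0657, adjusted p 1.1e-09, edgeR with Benjamini-Hochberg adjustment). The values for PTBP1 were -0.998 in EV and -0.96 in MUT, and DAZAP1 was at -0.83 in WT, -0.73 in EV and -0.96 in MUT. Of the transcription and chromatin list 5 fell and 2 rose in WT, with MBD3 at -0.70 and TCF3 at -0.46 among those that fell and ARID3A at 0.67 among those that rose. The median of these 10 was -0.22.

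Among members whose mean log2 CPM was 1 or more, the largest rises with cytarabine in WT were those of REEP6, PCSK4, EFNA2 and PALM. REEP6 went from 7.80, 9.31 and 7.04 CPM to 20.1, 17.4 and 23.7 CPM, a change of 1.34 (SE 0.166, adjusted p 1.9e-06, edgeR with Benjamini-Hochberg adjustment). PCSK4 rose by 1.24, from 1.91, 1.32 and 1.27 CPM to 3.29, 2.76 and 4.64 CPM, and it overlaps REEP6 on the opposite strand. EFNA2 rose by 1.12 and PALM by 0.96. In each of these 4 genes all treated WT libraries were above all untreated ones, and each was past the threshold in all 17 alternatives. Such a separation was found in 17 of the 50 members (34%), near the 33.5% of all tested genes. In EV and MUT the same 4 were at 1.29 and 0.95 for REEP6, 1.15 and 1.5 for PCSK4, 0.84 and 1.61 for EFNA2, and 1.198 and 1.40 for PALM.

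The shift between MUT and EV extended past the end of the block, with smaller medians farther along the chromosome. In the next stretch of the same length, chr19:1863570-3446099, 39 protein-coding genes were tested after cytarabine and had a median of 0.19, with 10 (25.6%) higher. The 384 genes from there to 24 Mb had a median of 0.13, with 12.0% higher, and the 596 genes beyond 24 Mb had 0.07, with 7.05% higher. Off chromosome 19 the median of 13235 protein-coding genes was -0.01, with 8.0% higher. For WT against treated EV the medians were 0.15 in the next stretch, 0.08 up to 24 Mb and -0.01 beyond it.

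Genome-wide, 151 other windows of the block's length held at least 20 tested protein-coding genes. Their medians for MUT against treated EV ran from -0.44 to 0.25, and none reached the 0.32 of the block. The block was placed by the untreated shift between the same lines, whereas the windows lay on a fixed grid. Its rank is therefore a description and not separate evidence. The highest was at chr2:218389141-219971670. For MUT against WT, 16 windows were at or above the block's 0.14, and for WT against EV 11 were at or above its 0.15. The untreated comparison, which chose the block, had a highest other window of 0.34, on chromosome 19 itself at chr19:6330121-7912650.

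**Figure D4:**
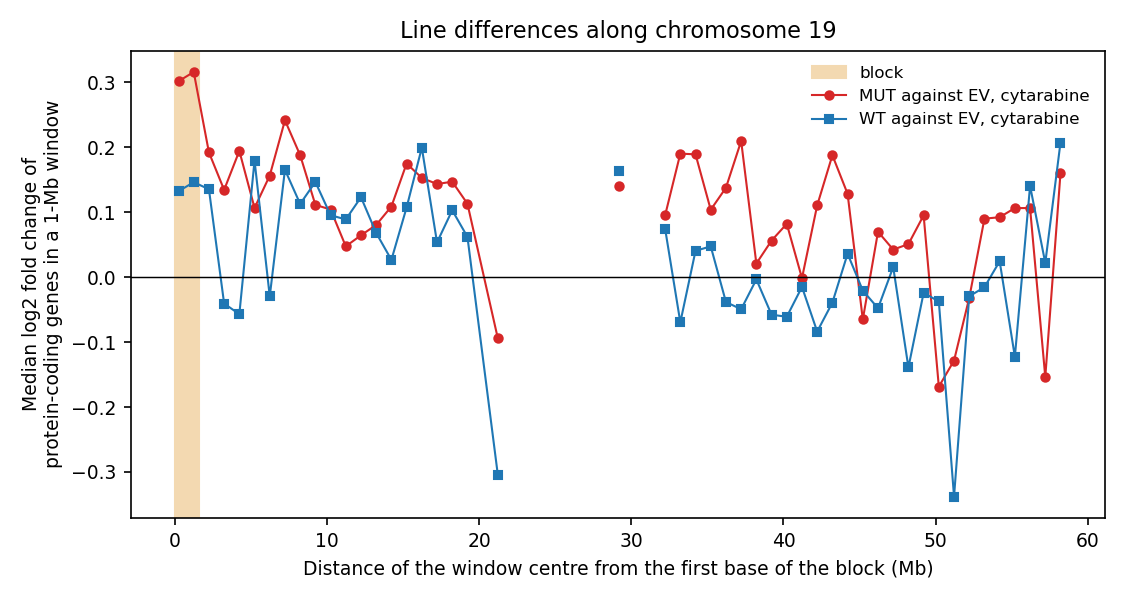
Median log2 fold change after cytarabine of the tested protein-coding genes in 1-Mb windows of chromosome 19 against the distance from the first base of the block, for MUT against EV (circles) and WT against EV (squares), in windows with at least 5 genes; lines are broken where windows are missing. The windows that hold the shaded block have MUT medians of 0.30 and 0.32, and those after it lie at or below 0.24.

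At the borders, which the choice of the block set, the untreated MUT to EV differences were 0.69 for PLPP2, 0.06 for MIER2 and 0.43 for C2CD4C at the start and 0.50 for ATP8B3, 0.12 for REXO1 and 0.42 for KLF16 at the end. Just outside, ABHD17A was at 0.33, SCAMP4 at 0.14 and ADAT3 at 0.23, and no tested protein-coding gene preceded PLPP2. The step at the far border is thus no larger than the differences between neighbours inside it. The 5 protein-coding genes left out by their symbols were also above 0 in treated MUT against EV, with ABCA7 at 0.67, RPS15 at 0.49, NDUFS7 at 0.32, ATP5F1D at 0.31 and UQCR11 at 0.04, and ABCA7 and RPS15 passed the edgeR test. Of 13 tested non-coding genes in the interval 8 were above 0 and 1 was higher in the same comparison, against 48.7% and 6.85% of all tested genes. The calls among these non-coding genes were thus near the share over all genes.

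The members were GC-rich in their transcripts as well, with a median of 64.9% in the 48 tested members with an annotated transcript, against 48.1% over all tested genes with one. The 2167 tested genes with a GC content of at least 60% had medians against untreated EV of 0.05, 0.03 and 0.13 in the untreated MUT libraries. After cytarabine these genes stood at 0.21, 0.14 and 0.22 in MUT and at 0.22, 0.12 and 0.19 in EV. With a correction for GC content in each library, the block's median for MUT against EV was 0.29 after cytarabine, against 0.32 without it, and 24 members rose. In untreated cells the median was 0.33 with the correction and 0.415 without it. The part of GC content in the shift was not tested beyond this correction.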

How the data were processed

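Total RNA of 18 U2OS libraries (6 groups of 3) was analysed from the authors' deposited table of estimated counts per gene, in which 70.4% of values were whole. The submitters' processing notes name CASAVA, STAR 2.6.1d and hg38. The counting tool and its use of strand are not given in the sources used here. The authors' second deposited table held a normalized signal for 19591 genes, equal to the count times a factor for each library (largest relative deviation 7.36e-06), and only those factors were used, in an alternative. Coordinates are the authors'. Of 19417 symbols matched to the GENCODE annotation, 99.91% overlapped its GRCh38 position.

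Counts were rounded, filtered with filterByExpr (18226 genes left), scaled with TMM and fitted in edgeR 4.0.16 (R 4.3.3) as 1 quasi-likelihood model with 6 groups (common biological coefficient of variation 0.104). The Benjamini-Hochberg adjustment ran over all genes in the fit, with a threshold of 0.05. Standard errors are the log2 fold change divided by the root of F. Log2 CPM used a prior count of 2. P-values rest on the spread between cultures of these lines, pooled over the 18 libraries, the untreated ones that chose the block included. That spread was not equal between groups. The within-group biological coefficient of variation was 0.117 in treated EV, 0.0677 in treated MUT and 0.0478 in treated WT. On simulated counts of 17803 genes for MUT against treated EV, 8 unchanged genes were called. Members and gene lists were chosen with earlier results of these data known. Members were named in full by a rule. It took the 5 largest non-overlapping called changes (mean log2 CPM not under 1) in each tested comparison, the 2 most abundant of each list, the 3 tested members nearest each border, any member of a count of 5 or fewer, MBD3 and GPX4. Further members are named where a list's calls are given.

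Replicate numbers were not used as pairs in the main fit, and the check of them gave mixed values. Correlations of same-numbered deviations were 0.262, -0.0108 and 0.417 for MUT against treated EV. For replicates 1 and 3 the same-numbered library was the closest. For WT against treated EV the correlations were -0.2, 0.179 and -0.261. Replicates differed beyond sampling noise, with a chi-square per degree of freedom of at least 2.51. Alternatives were other scaling factors, other low-count filters, a replicate block, a GC offset, DESeq2 1.42.0, a fit of only the groups compared and leaving out each replicate.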

Additional observations from a re-analysis of the deposited data

How the results depend on the processing

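The median of the block kept its sign in every alternative run for each of the 9 comparisons. For MUT against treated EV it ran from 0.28 to 0.34, and the number of members higher was 22 to 27 in fits with all replicates. Leaving out 1 replicate gave 16 to 21 members higher, with 1539 to 2051 genes past the threshold over the whole table. The 1 member lower, GRIN3B, was absent (0) when a mean of at least 50 counts was required, and DESeq2 gave it no adjusted p (0 lower). GZMM turned sign with the replicate block (-0.0119), with the GC offset and the block (-0.0425), and between -0.42 and 0.69 when 1 replicate was left out. Over the 35 named members, 530 of 593 alternative values kept direction and call, 55 lost the call, 2 gained it (CDC34 and EFNA2, in the fit of only the groups compared) and 6, all of GZMM, reversed.

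For MUT against treated WT, 6113 genes passed in the fit of only the groups compared, and 2313 to 2866 without 1 replicate. The members higher were 8 to 14 and the members lower 0 to 1 without 1 replicate, and 0 were lower with a mean of at least 50 counts. For WT against treated EV, leaving out 1 replicate gave 1776 to 2477 genes, 3 to 7 members higher and a median of 0.12 to 0.16. The median was 0.17 with no low-count filter and 0.11 with a mean of at least 50 counts. Without treatment the WT to EV median was 0.13 with the authors' factors, 0.12 with the GC offset, with or without the block, and 0.12 to 0.16 without 1 replicate.

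The median cytarabine effect moved with the scaling, the filter and the GC offset. In WT it was -0.10 with upper-quartile factors, -0.20 with the authors' factors, -0.11 with a mean of at least 50 counts, -0.24 with the GC offset, with or without the block, and -0.18 to -0.12 without 1 replicate. In EV these values were -0.0423, -0.19, -0.0836 and -0.17, and -0.14 to -0.0639 without 1 replicate, with -0.14 with no filter and -0.13 in the fit of only the groups compared. The causes were not tested.

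The replicate block, for which the pairing check gave mixed values, gave 25 members higher for MUT against treated EV, 13 for MUT against treated WT and 11 for WT against treated EV. For cytarabine in WT it gave 15 higher and 21 lower. At this depth, members with few counts, such as GZMM, FGF22 and MADCAM1, could show only large changes.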
